A study of Mus musculus with 3 samples.

Results

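The genes described here are 9 lipid genes that are known for their place in the sebaceous gland and in fatty acid synthesis: Fasn, Scd1, Scd2, Scd3, Elovl3, Awat2, Cidea, Mgst1 and Pparg. They were chosen by name, and all 9 were found among the 19927 gene symbols listed in at least 1 of the 3 libraries. The libraries held single cells scraped from trypsin-treated dorsal skin of mice at postnatal day 18. Control 1 and control 2 came from Vdr flox/flox mice, which carry loxP-flanked copies of the vitamin D receptor gene and no Cre. The remaining library came from Vdr flox/flox; Krt14cre mice, in which Cre recombinase under the keratin 14 promoter acts in the epidermis and its appendages. Skin of several male mice was pooled in each library, so the spread between mice was not measured, and with 1 library of the Krt14cre genotype no test across libraries was made. After barcodes with fewer than 200 detected genes or over 20% mitochondrial counts had been left out, 1480, 1658 and 2622 cells stayed in control 1, control 2 and the Vdr cKO-labelled library, with 18802408, 28690129 and 30954897 counts.

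Sebaceous glands are attached to the upper hair follicle and release sebum, a mixture of triglycerides, wax esters and other lipids, when their filled cells burst. Sebocytes make fatty acids from acetyl units, lengthen and desaturate them, and join them to alcohols, and PPAR-gamma is a transcription factor known to promote their differentiation. Several of the same genes also act in adipocytes, which lie in the dermis.

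The libraries differed in ways that bear on every value below. Vdr itself was at 40.7, 35.9 and 80.8 CPM (counts of the gene in each 1000000 counts of the library) in control 1, control 2 and the Vdr cKO-labelled library, and was thus not lower under that label. Counts per gene can include transcripts that lack only the floxed part, so the level does not check the deletion. Summed basal keratinocyte markers were at 4587, 3267 and 12427 CPM and inner root sheath markers at 0.585, 2.54 and 235 CPM, so the libraries held different mixtures of cells. Among 8 white adipocyte markers, the defining genes Adipoq, Cfd, Plin1 and Lep had no count in any library and the others summed to between 14.6 and 26.6 CPM. Of the deposited barcodes, 84, 85 and 60 also occurred in another library. In pooled counts, fewer cells of a type and less RNA per cell cannot be told apart.

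Taken over all cells, Scd3 and Awat2 were lower in the Vdr cKO-labelled library than in both controls, by over 2-fold after 1 CPM was added, and no gene of the group was higher by that rule. Scd1 and Cidea were lower than both controls by unequal amounts, and Fasn, Elovl3 and Mgst1 lay between the controls. Of the 9 genes, 7 reached 50 CPM in a library and could be called, and 2 of the 7 were called; over all 3919 genes at that level, 5.03% were called in either direction, 3.88% as higher and 1.15% as lower. Of the 7, the controls gave 1 or 2 calls as well, though fewer of all genes. With control 1 set in the place of the Vdr cKO-labelled library, 1 of the 7 was called, Scd1 as higher, when 1.68% of all genes were called, 0.944% as higher and 0.74% as lower. With control 2 in that place 2 of the 7 were called, Elovl3 and Mgst1 as lower, when 1.74% of all genes were called, 0.23% as higher and 1.51% as lower. Without 1 cluster of cells, described further on, Scd3 was at 124, 42.0 and 68.7 CPM and was not called, and Awat2, at 9.85, 3.14 and 2.79 CPM, was under the level at which a call could be made.

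**Figure D1:**
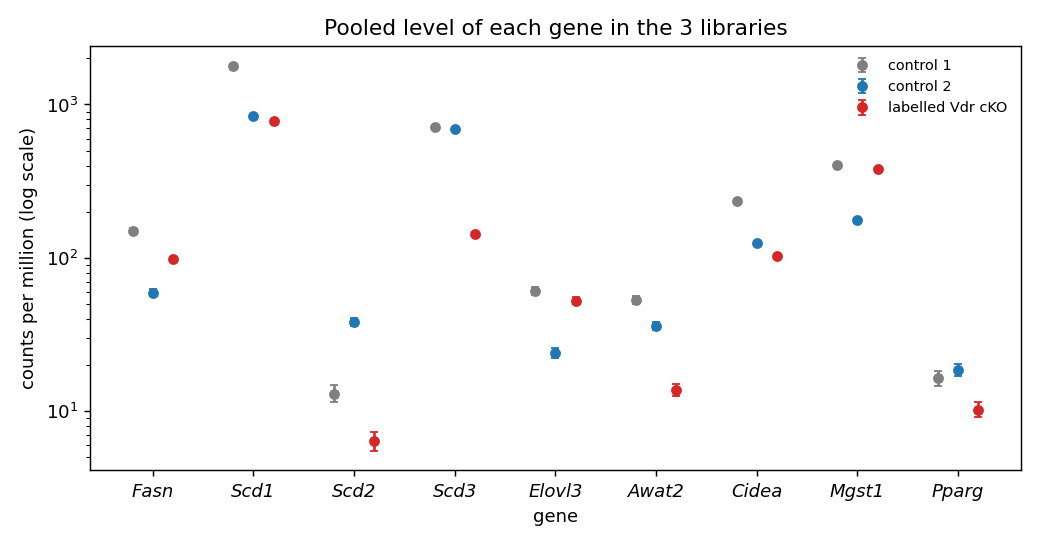
Pooled level of each of the 9 genes in the 3 libraries, as CPM on a log axis; points are single libraries and bars are exact 95% Poisson intervals, which cover counting error only. The 2 controls lie together for Scd3, at 708 and 697 CPM with the Vdr cKO-labelled library at 143 CPM, and apart for Scd1 and Mgst1.

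Fatty acid synthase, encoded by Fasn, builds palmitate. Control 1 held it at 150.5 CPM and control 2 at 59.4 CPM, against 98.4 CPM in the Vdr cKO-labelled library. The controls were thus farther from each other than either was from that library, and no direction could be read. A count of Fasn was found in 5.12%, 3.13% and 5.11% of cells once each cell had been thinned to 1000 counts, against 11.4%, 10.7% and 13.7% before thinning.

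Scd1, Scd2 and Scd3 encode stearoyl-CoA desaturases, which place a double bond in long fatty acids. The genes neighbour each other, with Scd4, on chromosome 19. In the GENCODE annotation of GRCm38, the assembly also called mm10, Scd3 spans chr19:44203269-44244016 on the plus strand and Scd1 chr19:44394455-44407879 on the minus strand. Of all 50-base words in the longest coding transcript of each of the 4 genes, between 3.44% and 6.37% also occurred in another of them, and 0 did so within the last 500 bases, so the 3′ ends were distinct; how reads that fit several genes were counted is not given in the sources used here. Scd4 had at most 3 counts in a library.

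Scd1 was at 1784, 846 and 777 CPM in control 1, control 2 and the Vdr cKO-labelled library. The last was 0.435 times control 1 (95% interval for counting error 0.428 to 0.443) and 0.918 times control 2 (0.902 to 0.934), while control 1 was 2.11 times control 2. Its gap to control 2 was thus smaller than the gap between the controls. A count was found in 30.8%, 17.97% and 20.5% of thinned cells, and in 46.4%, 36.5% and 41.0% of cells before thinning. Counts of Scd1 outside gland cells were not read as expression. In the barcodes left out by the limits on cells Scd1 was at 1016, 631 and 436 CPM. The largest cluster, led in control 1 by Polg2, Cdca7 and Impa1, had it at 1362, 570 and 619 CPM. There 36.9%, 19.2% and 23.4% of thinned cells had a count. These levels were above those of the left-out barcodes except in control 2, and whether the cells express Scd1 was not tested. In a granular-like cluster led by 5430427M07Rik, Gm45609 and Rab3b, with the cornified envelope genes Lce1a2, Lce1c and Lce1m among its 10 leading genes, it was at 166, 69.3 and 47.0 CPM, and 19.4%, 4.84% and 9.30% of thinned cells had a count. The median depths of these cells before thinning were 23001, 27269 and 14064.5 counts.

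Of the 9 genes, Scd3 had the widest gap to the nearer control. It stood at 708, 697 and 143 CPM, and the 2 controls differed by a log2 value of 0.02. The library labelled Vdr cKO was at 0.202 times control 1 (0.195 to 0.209) and 0.205 times control 2 (0.198 to 0.212). A count was found in 12.3%, 8.64% and 2.93% of thinned cells, and in 19.1%, 16.9% and 5.95% before thinning. These counts came from few cells, since the 10 cells with the most held 78.2%, 76.2% and 73.9% of them.

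Scd2 followed another pattern. It was at 13.0, 38.1 and 6.36 CPM and so did not reach 50 CPM in any library. Control 2 was above control 1 here, the reverse of Scd1, and a count was found in 1.02%, 1.75% and 0.585% of thinned cells.

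Elovl3 encodes an elongase of saturated and monounsaturated very long chain fatty acids. It was at 60.7 CPM in control 1, at 23.9 CPM in control 2 and at 52.5 CPM with the Vdr cKO label. The gap between the controls, 2.54-fold, was wider than the gap of either control to that library. The gene overlaps Pitx3 on the opposite strand, and whether reads were counted by strand is not given in the sources used here.

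Awat2 encodes an acyltransferase that makes wax esters. Control 1 had 53.3 CPM of it and control 2 had 35.9 CPM, against 13.8 CPM in the Vdr cKO-labelled library. It passed the 50 CPM limit only through control 1, and was 0.258 times that control (0.230 to 0.289) and 0.384 times control 2 (0.342 to 0.430). It overlaps Otud6a on the opposite strand. With 10 CPM added in place of 1 it was no longer called, and the mean of single-cell CPM, where no library reached 50 CPM, gave a log2 difference of -0.94 from the mean of the controls.

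The 250 bases upstream of the annotated start are shown for Scd3 and Awat2 because these were the genes called lower in the same library. They were taken from RefSeq on GRCm38.p6, which held such windows for 5 of the 9 genes, and they run 5′ to 3′ on the strand of each gene, at chr19:44203038-44203287 (plus) for Scd3 and chrX:100442718-100442967 (minus) for Awat2. Capitals mark a match to 1 of the motifs searched on both strands, which were the CCAAT box, the E-box motif CACGTG, the sterol regulatory element of the LDL receptor gene, and repeats of the nuclear receptor half-site AGGTCA with 1 base between them, as bound by PPAR with RXR, or with 3 bases, as bound by VDR with RXR.
Scd3: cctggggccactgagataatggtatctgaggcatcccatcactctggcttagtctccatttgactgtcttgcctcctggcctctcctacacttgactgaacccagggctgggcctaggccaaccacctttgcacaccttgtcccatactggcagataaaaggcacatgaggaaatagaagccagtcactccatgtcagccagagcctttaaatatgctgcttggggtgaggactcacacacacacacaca
Awat2: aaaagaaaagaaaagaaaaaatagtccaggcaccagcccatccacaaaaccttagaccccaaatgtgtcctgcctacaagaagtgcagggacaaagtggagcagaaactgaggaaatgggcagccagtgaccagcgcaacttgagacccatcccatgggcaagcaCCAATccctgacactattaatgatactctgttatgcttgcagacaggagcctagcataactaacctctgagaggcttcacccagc
Awat2 held 1 CCAAT match, 85 bases before the start, and Scd3 held 0 matches to the 5 motifs in this window. CCAAT occurred in 33.8% of the 32851 upstream windows of that length, CACGTG in 6.02%, the sterol element in 0.0731%, and the repeats with 1 and 3 bases between in 0.0335% and 0.00609%.

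Cidea encodes a lipid droplet protein that promotes droplet fusion and sebum release. It was at 234, 124 and 102 CPM, below both controls in the Vdr cKO-labelled library but only 0.823 times control 2 (0.785 to 0.864). Mgst1 encodes a microsomal glutathione transferase that is abundant in sebocytes. It was at 405, 176 and 377 CPM, so that control 2 alone stood low. Pparg, which encodes the transcription factor named above, was at 16.4, 18.6 and 10.2 CPM and did not reach the level needed for a call.

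When all cells were clustered with the 9 genes, the pathway genes and the gland markers kept out of the variable genes, 1 of 9 clusters carried most counts of the group. Its leading genes were Cd36, Cavin2 and 4930449A18Rik. It held 42, 50 and 104 cells of control 1, control 2 and the Vdr cKO-labelled library. It was picked as the cluster with the highest summed level of 7 other sebaceous markers, Awat1, Far2, Soat1, Plin5, Mc5r, Apoc1 and Krt79. They summed to 10070.2, 13554 and 5175 CPM in it, a sum that the choice itself made the highest. In the next cluster by that sum, led by Tchh, Krt71 and Krt27, they were at 1563, 2373 and 1836 CPM. The picked cluster is called sebaceous-like. White adipocyte markers summed to 26.1, 70.4 and 238 CPM there, with Adipoq, Cfd, Plin1 and Lep at 0. No barcode of these cells occurred in another library, doublets were not removed, and the deepest of the cells held 184485, 187687 and 147241 counts.

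Every gene of the group except Scd2 had its highest CPM in the sebaceous-like cluster in all 3 libraries, under each of 6 clustering settings. Among these was a setting that allowed the genes themselves among the variable genes, so that they could help to form the clusters. Cells of the cluster gave 7.14%, 4.46% and 6.11% of all counts in the libraries, but 74.5%, 72.3% and 58.4% of Scd1 counts, 83.8%, 94.2% and 54.9% of Scd3 counts, 82.9%, 91.6% and 81.0% of Awat2 counts and 76.0%, 96.6% and 65.2% of Pparg counts. For Fasn these shares were lower, at 48.4%, 47.4% and 38.6%. In thinned cells a count of Scd1 was found in 92.9%, 94.0% and 94.2% of the cluster.

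Scd2 had no count in any of the cells of the sebaceous-like cluster. At a limit of 3 counts this allows up to 2.23, 2.35 and 1.59 CPM there, and a count in up to 7.14%, 6% and 2.88% of the cells, which does not limit how many express the gene; the upper ends of the exact intervals are 2.75, 2.89 and 1.95 CPM. With the 9 genes allowed among the variable genes the cluster held 4 counts of Scd2 in the Vdr cKO-labelled library, and the cells with at least 3 of the 7 gland markers, chosen without the cluster, held 17, 90 and 12. Scd2 was at 14.03, 39.9 and 6.78 CPM over all other cells. In both controls its highest level was in a small cluster of antigen-presenting-like cells led by Cd207, Gpr141 and Lcp1. Control 1 had 147 CPM there from 5 counts, all in 1 of 4 cells. Control 2 had 148 CPM from 61 counts, in 3 of 8 cells. These were 2.04% and 5.58% of the Scd2 counts of the controls. A cluster led in control 2 by Hba-a2, Hbb-bt and Hbb-bs held 35.1% and 61.8% of them, beside 36.7% and 40.3% of all counts. Scd2 was at 12.5 and 58.5 CPM in that cluster, against 13.4 and 24.3 CPM in the other cells of control 1 and control 2. Spinous keratinocyte markers summed to 84386 and 85811 CPM in it, and red cell markers to 52.3 and 1003 CPM. The 26 cells of the antigen-presenting-like cluster in the Vdr cKO-labelled library gave 5 counts, or 11.2 CPM.

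**Figure D2:**
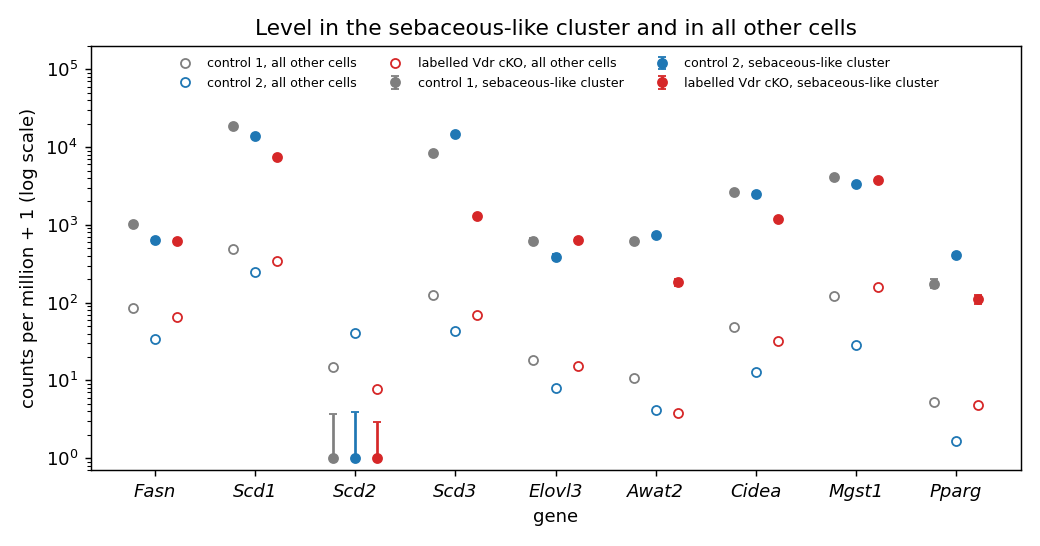
Level of each of the 9 genes in the sebaceous-like cluster (filled points, with exact 95% Poisson intervals) and in all other cells (open points), as CPM plus 1 on a log axis, for each library. The filled points lie above the open points for every gene but Scd2, which had 0 counts in the cluster in all 3 libraries.

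Within the sebaceous-like cluster the level of Scd3 reached 8304 CPM in control 1 and 14732 CPM in control 2, but 1282 CPM in the Vdr cKO-labelled library. Awat2 was at 619, 738 and 182 CPM, and Cidea at 2645, 2531 and 1190 CPM, so each of these was over 2-fold below either control. For Cidea this gap to control 2 ended in 4 of 5 other ways of choosing or weighting the cells, where the ratio was 0.598, 0.778, 0.774 and 0.908. Scd1 was at 18609, 13736 and 7416 CPM and Pparg at 174, 404 and 109 CPM, both lowest in that library. Mgst1, at 4118, 3364 and 3761 CPM, and Elovl3, at 627, 386 and 636 CPM, showed no such gap. Among other gland genes, Far2, a fatty acyl-CoA reductase, was at 2238, 4202 and 1012 CPM. Soat1, which esterifies cholesterol, was at 4043, 3540 and 1661 CPM. Both were lowest in the Vdr cKO-labelled library, as were Awat1, at 777, 1403 and 291 CPM, and Mc5r, at 695, 292 and 141 CPM. Apoc1, at 739, 1279 and 681 CPM, and Krt79, at 1577, 2838 and 1385 CPM, were 0.921 and 0.879 times control 1. Far2 was 0.604 times control 1 without the 5 deepest cells of each library and 0.730 times among cells with 5000 to 50000 counts. Cers4, a ceramide synthase, was at 4250, 3988 and 3312 CPM.

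Cells of the cluster differed between libraries in other ways too. The keratinocyte genes Lor and Krt10 were at 1180 and 2086 CPM in control 1, 531 and 831 CPM in control 2 and 5953 and 9859 CPM in the Vdr cKO-labelled library, and the median depth of a cell was 11847.5, 12014.5 and 7693.5 counts. Basal keratinocyte markers summed to 4469, 3718 and 16823 CPM in the cluster and companion layer markers to 2.98, 0.782 and 595 CPM. Lor and Krt10 together made up under 1% of counts in 25, 45 and 59 cells. Among these cells Krt10 was still at 740, 528 and 3064 CPM and Lor at 254, 200 and 660 CPM, so a difference between libraries stayed. Scd3 was at 9059, 15100.2 and 844 CPM in them and Awat2 at 681, 756 and 104 CPM, gaps that were wider than in the whole cluster. Those of Scd1, Cidea and Pparg were narrower there. The Vdr cKO-labelled library was at 0.435 times control 1 and 0.626 times control 2 for Scd1. For Cidea it was at 0.549 and 0.598 times, and for Pparg at 0.842 and 0.388 times. The gap of Soat1 also narrowed, to 0.468 and 0.553 times from 0.411 and 0.469 times in the whole cluster. That of Far2 widened, to 0.420 and 0.224 times from 0.452 and 0.241 times. Without the 5 deepest cells of each library, Scd3 was at 5735, 12711 and 1585 CPM, still lowest in that library, but Awat2 at 323, 772 and 233 CPM no longer lay over 2-fold below control 1.

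Scd3 was also uneven from cell to cell. Among cells of the cluster with a count of Scd3, which were 23 of 42, 30 of 50 and 33 of 104, the median level was 8203, 16518 and 1483 CPM. Scd3 reached 1000 CPM in 45.2% (29.8 to 61.3, exact binomial 95% interval), 52.0% (37.4 to 66.3) and 17.3% (10.6 to 26.0) of cells. These cells were not thinned, and the intervals cover counting error within a library only. After thinning to 1000 counts, a count of Scd3 was found in 42.9%, 56% and 22.1% of cells of the cluster. There were 0.446, 1.07 and 0.173 Scd3 counts for each Scd1 count. The controls thus differed in this ratio by about as much as control 1 differed from the Vdr cKO-labelled library, which was 0.387 times control 1 and 0.161 times control 2, and among cells with 5000 to 50000 counts it was 0.702 times control 1.

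**Figure D3:**
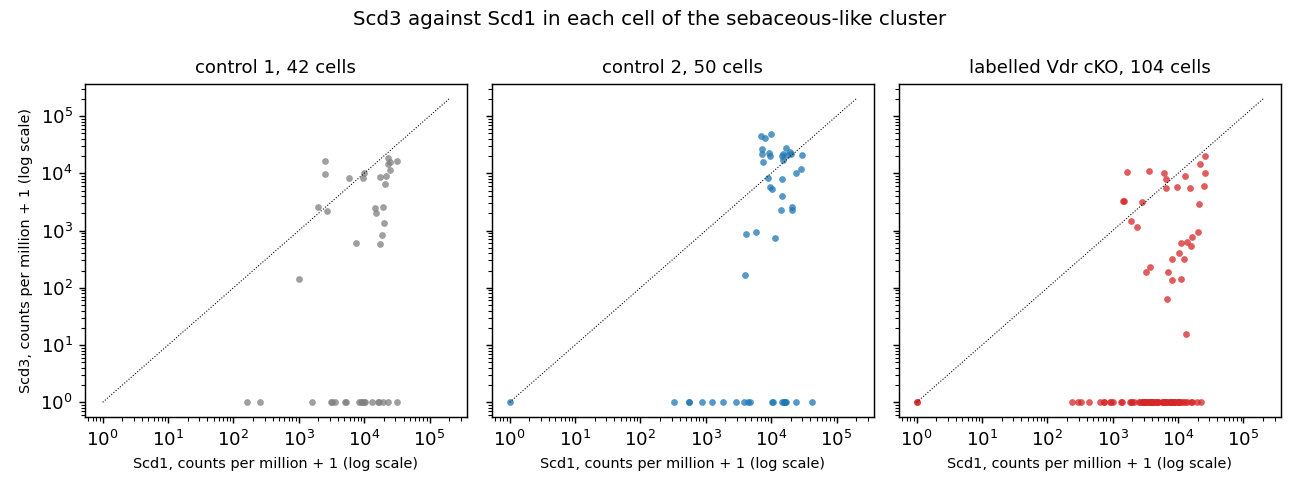
Scd3 against Scd1 in each cell of the sebaceous-like cluster, as CPM plus 1 on log axes, 1 panel for each library and 1 point for each cell; the dotted line marks equal levels. Cells without a count of Scd3 lie along the bottom, and they are 71 of the 104 cells in the Vdr cKO-labelled library.

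In thinned cells, detection of at least 2 of the 9 genes was somewhat above independent detection among cells of like depth in each library. It was far more common in the sebaceous-like cluster than in other cells. At 1000 counts a cell, 14.2% (12.4 to 16.1), 7.08% (5.87 to 8.45) and 8.63% (7.57 to 9.78) of cells had a count of at least 2 of the genes, and 1.57%, 1.82% and 1.76% had at least 4. Independent detection among cells of like depth would give 13.5%, 5.91% and 6.96% for at least 2. The intervals of both controls hold that value, but intervals over cells cover counting error only and do not set the libraries apart. The expected shares use the detection rates of all cells, those of the sebaceous-like cluster among them. Before thinning, 27.4%, 20.8% and 22.9% of cells had at least 2, below the 30.6%, 23.2% and 25.9% given by independence. In the sebaceous-like cluster 85.7%, 92.0% and 86.5% of thinned cells had at least 2 of the genes, against 12.1%, 4.33% and 5.33% of all other cells. Of the cells with at least 4, 18 of 23, 28 of 29 and 41 of 45 belonged to the cluster.

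Single pairs were tried where independent detection among cells of like depth gave at least 5 expected cells with both genes. There were 11, 5 and 10 such pairs, and none of them held Scd2. All of the pairs tried were seen more often than expected, at 1.37 to 2.99 times the expected number in control 1. The range was 2.24 to 4.14 times in control 2 and 1.90 to 4.68 times in the Vdr cKO-labelled library. Cidea and Mgst1 were found together in 25 cells of control 1 against 8.35 expected, and in 49 cells of the Vdr cKO-labelled library against 11.2 expected. Scd1 and Scd2, under the limit of 5 expected cells, were found together in 6, 4 and 2 cells against 4.63, 4.83 and 2.93 expected. Without the sebaceous-like cluster the median ratio was 1.23 over 10 pairs, 0.999 over 3 pairs and 1.55 over 6 pairs, lower than with it in each library.

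**Figure D4:**
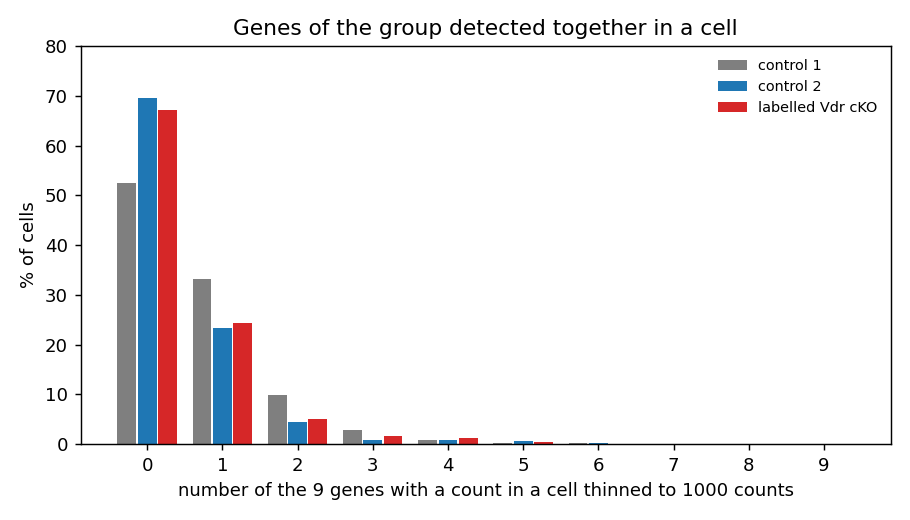
Share of cells by how many of the 9 genes had a count, after each cell had been thinned to 1000 counts, for the 3 libraries. Cells with none of the genes made up 52.5%, 69.6% and 67.1% of control 1, control 2 and the Vdr cKO-labelled library, and no cell had more than 7.

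Scd1 and Mgst1 were detected in enough cells to ask which of 2940 other genes followed them from cell to cell. For Scd1 the closest were Elovl6, Cers4 and Soat1, with a mean Pearson r over the 3 libraries of 0.37, 0.36 and 0.36. For Mgst1 the closest included Elovl6 and Soat1, with 0.30 and 0.30. These weak values describe sparse counts of cells that share a library, over 1466, 1597 and 2562 cells.

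Other genes of lipid synthesis were examined in lists, each as the log2 fold of the Vdr cKO-labelled library against the control mean, beside a median of 0.00 over all genes tested, of which 3.88% were called higher and 1.15% lower. With so few genes in a list, a call or 2 makes a large share. Of 9 other sebaceous genes at 50 CPM or more, 2 were called lower (Awat1, a wax synthase, at 62.1, 65.6 and 24.3 CPM, and Far2) and 1 higher (Krt79, a keratin also of the upper follicle duct, at 283, 257 and 765 CPM), with a median of -0.44. Dgat2, which makes triglycerides and was picked for its high CPM, was at 703, 728 and 528 CPM. Of 14 genes of fatty acid synthesis and its regulators 2 were lower, namely Elovl5, an elongase of polyunsaturated fatty acids, at 531, 299.999 and 98.6 CPM, and Insig1, which holds back the sterol-sensing SREBP pathway, at 72.5, 30.2 and 14.1 CPM. Insig1 passed the 50 CPM limit only through control 1, and was called higher when control 1 took the other place. None of the 14 was higher, and the median was -0.37. In that list Elovl1 and Elovl6, picked for their high CPM, were at 1074, 1346 and 1185 CPM and at 2333, 1245 and 1222 CPM.

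Among 13 genes of cholesterol synthesis 1 was lower, the desaturase gene Sc5d at 114, 96.9 and 45.8 CPM, and 0 were higher, while 12 of the 13 lay below both controls, against 35.9% of all genes tested. By that measure 5 of 9 other sebaceous genes, 9 of 14 of fatty acid synthesis and 5 of 6 of PPAR lay below both. So did 4 of 7 genes of the group and 0 of 4 other glutathione transferase genes. Fdps, picked for its high CPM, was at 659, 482 and 406 CPM. Among 6 partners and targets of PPAR, Fabp5, a fatty acid binding protein of keratinocytes, was lower at 798, 944 and 383 CPM, while the corepressor Ncor1 was at 321, 338 and 319 CPM. Of 4 other glutathione transferase genes 2 were higher, Mgst3 at 40.7, 30.2 and 85.4 CPM and Gstm1 at 10.1, 11.4 and 67.2 CPM, and Gstm5 and Gsto1 were not called, at 101, 136 and 124 CPM and at 63.3, 46.8 and 64.6 CPM. Mgst3 and Gstm1 passed the 50 CPM limit only through the library in which they were high, which favours a call. The part of the different cell mixtures in these values was not tested.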

How the data were processed

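Single-cell libraries were made with the RNAdia 2.0 kit on a Nadia droplet instrument, and the study followed Seurat guidelines. The deposited matrices hold whole-number counts per gene and barcode, made by the authors with reads mapped to mm10 per the labels; the study names Seurat for alignment, which does not map reads, and the read mapper, the annotation and whether copies of 1 molecule were collapsed are not given in the sources used here. Counts were summed over kept cells and divided by the library total (CPM). Intervals are exact (Poisson or Clopper-Pearson), at 95%, and cover counting error only. The cells and genes kept, the 2-fold call with 1 CPM added, the thinning to 1000 counts and the 10 groups of like depth used for expected co-detection are as stated in the report. Cells were clustered in Seurat 5.3.0 (scale 10000, 2000 variable genes, 10 components, 20 neighbours, resolution 0.5). Scripts ran in Python 3.11.15 with scipy 1.17.1 and were tested on simulated data; edgeR 4.0.16 and DESeq2 1.42.0 gave alternative library sizes only.

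The 9 genes, the lists and the markers were chosen with earlier results of these data known. Named were the 9 genes, list genes that were called, the 2 of each list with the highest mean CPM, the 3 genes closest to a gene found in at least 5% of thinned cells of every library, and the 3 leading genes of a cluster; some genes that this rule names are not reported here. Doublets were not removed.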

Additional observations from a re-analysis of the deposited data

How the results depend on the processing

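No paired analysis was possible because the groups share only 1 replicate number and no test across libraries was made. The count of genes called of the group was 2 of the 7 that could be called, with 5.03% of all genes called. It became 1 (Scd3) of 6 with the mean of single-cell CPM, 1 of 7 with 10 CPM added and 1 of 7 at 3-fold. Of all genes 5.76%, 3.73% and 1.91% were called in these settings. Without the sebaceous-like cluster, an alternative chosen after seeing the data, it was 0 of 4, with 4.82% of all genes called. It was 3 of 8 (Scd2 as well, as lower) when each gene was counted once per cell, with 4.3% of all genes called. Without control 1 it was 4 of 7, with Scd3 and Awat2 as lower and Elovl3 and Mgst1 as higher. Without control 2 it was 4 of 7, with Scd1, Scd3, Awat2 and Cidea all as lower. Of all genes 9.13% were called without control 1 and 9.93% without control 2. Without that cluster, the log2 difference of Scd3 was -0.27 in place of -2.29 and that of Awat2 -0.98 in place of -1.63. The 197 genes called over all genes became 829 at 10 CPM, 2092 with no limit on level, 557 at 1.5-fold and 75 at 3-fold, and lay between 358 and 389 without 1 control. Of the 197, 77.2% were higher, against 55.4% with edgeR TMM sizes and 51.0% with DESeq2 sizes, which moved the median of all genes to -0.18 and -0.21 and left the calls of the 9 genes at Scd3 and Awat2. The share of cells with at least 2 genes was 21.1% in control 1 at 2000 counts, and 27.4%, 20.8% and 22.9% with no thinning, where independence gives 30.6%, 23.2% and 25.9%. The 26 pairs above expectation became 75 of 80 with no thinning. The directions of Fasn, Elovl3 and Mgst1 changed when 1 control was left out or single-cell means were used, so none is read for them. In the sebaceous-like cluster the log2 difference of Scd3 lay between -3.84 and -2.49 over the ways of choosing its cells, which were added after seeing the data, and Cidea fell short of 2-fold from control 2 in 4 of these 5 ways. Few cells carry these counts, and the single library of the Krt14cre genotype limits every comparison.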
